A study of Homo sapiens with 8 samples.

Results

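The genes examined were 34 genes of glycolysis, lactate handling and the pentose phosphate pathway, chosen from a list of symbols by their role in these pathways. Of the 17649 gene symbols measured by RNA-Seq, 33 matched the list by symbol, and PGLS was found by its Ensembl identifier under the clone-based symbol AC010618.1, so it is described separately and left out of the counts. MDA-MB-231 is an ER-negative human breast cancer cell line. The 4 control cultures received PBS, and the 4 CML-exposed cultures received 1 µM carboxymethyllysine (CML), an advanced glycation end product, for 48 hours; both groups were grown in the same low-glucose medium. All 8 libraries therefore came from 1 cell line at 1 dose and 1 time point, and nothing in the labels ties a numbered replicate to its own day or passage, so p-values measure the spread between these cultures.

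Glycolysis splits glucose into pyruvate and yields ATP and NADH, and lactate dehydrogenase reduces pyruvate to lactate so that NAD+ is regained and glycolysis can go on. The pentose phosphate pathway draws on the first phosphorylated sugar of glycolysis and makes NADPH and ribose for nucleotides. Many cancer cells take up much glucose and release lactate even where oxygen is present, and most steps are served by several isozymes from separate genes. CML arises where sugars and sugar fragments attack lysine side chains, and the question put to these data was how the transcripts of the sugar-burning machinery stood in cells exposed to it.

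The values were CPM, a read count scaled by the authors to a library total of nearly the same size in all libraries, and rested on an estimated 16161802 to 18954732 reads per library. A CPM is a share of a library, so less of a transcript per cell and more of all other RNA cannot be told apart. The defining markers of the line were present, with VIM at 4068 ± 39.1 CPM, CD44 at 832 ± 35.4 and EGFR at 923 ± 32.9 in control cells (SD, n = 4), with the keratins KRT8 and KRT18 at 213 ± 23.6 and 330 ± 15.8. Against the lists, SPARC was near 0 (0.114 to 0.414 CPM in 7 libraries, and 6.03 CPM in CML replicate 3), and EPCAM, listed among the markers the line lacks, was at 14.2 ± 1.70 CPM in control and 14.9 ± 1.10 CPM in CML-exposed cells. CDH1, FOXA1 and PGR of that list had group means of at most 0.740 CPM, and the leukocyte marker PTPRC of at most 0.475 CPM. Higher than these were the leukocyte marker CD14, at 1.23 ± 0.456 CPM in control and 1.05 ± 0.128 CPM in CML-exposed cells, and the endothelial marker PECAM1, at 3.41 ± 0.302 and 3.00 ± 0.472 CPM. Relative to the mean of all libraries, values fell with GC content in both libraries numbered 4 and rose in the other 6. The rise was steepest in control replicate 1, and the trend is described with the genes it touched.

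Promoter sequence is shown for 3 of the 5 genes with the smallest p-values, because their windows held ACGTG, a form of the short core to which hypoxia-inducible factors bind. Other forms of that core were not searched for and are not marked or counted. The sequences are RefSeq promoters of build GRCh38.p14, cut to the 250 bases upstream of the first listed start on the gene's own strand, and capitals mark ACGTG or its reverse complement CACGT, which overlap where CACGTG, the E-box of MYC-type factors, is present.
LDHA (chr11:18394313-18394562, plus strand): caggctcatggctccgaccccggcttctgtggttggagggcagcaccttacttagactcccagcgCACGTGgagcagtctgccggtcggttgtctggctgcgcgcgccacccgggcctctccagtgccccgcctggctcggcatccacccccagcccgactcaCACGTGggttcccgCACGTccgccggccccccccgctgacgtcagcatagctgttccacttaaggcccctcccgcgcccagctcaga
HK2 (chr2:74833877-74834126, plus strand): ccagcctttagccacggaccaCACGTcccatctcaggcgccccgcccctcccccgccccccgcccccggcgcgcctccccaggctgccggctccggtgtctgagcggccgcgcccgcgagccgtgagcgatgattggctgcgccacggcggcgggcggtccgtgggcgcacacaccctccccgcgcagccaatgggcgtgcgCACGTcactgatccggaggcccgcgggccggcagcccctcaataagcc
PDK3 (chrX:24465036-24465285, plus strand): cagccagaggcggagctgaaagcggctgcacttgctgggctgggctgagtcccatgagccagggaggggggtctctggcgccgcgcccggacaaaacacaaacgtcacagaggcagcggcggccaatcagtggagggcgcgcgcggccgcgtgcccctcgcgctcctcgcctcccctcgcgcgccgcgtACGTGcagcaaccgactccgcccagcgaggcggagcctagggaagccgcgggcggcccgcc
The LDHA window held ACGTG on either strand at 3 separate places, 2 of them full CACGTG, the HK2 window at 2 places and the PDK3 window at 1 place. No match to ACGTG was found in the windows of TPI1 and PGAM1. Promoters were listed for 31 of the 34 genes, and 11 of them (35.5%) held ACGTG on either strand, beside 18.7% of the 27305 symbols with a listed promoter. The windows of the genes were also richer in GC, with a median of 68.4% beside 58.0%. CACGTG stood in 3 of the 31 windows (9.7%), beside 6.5% of all. These matches describe the letters of a window and were not related to the expression values.

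Transcripts of the steps from aldolase to lactate were the most abundant. Per kb of merged exons, over all 8 libraries, GAPDH, the dehydrogenase that makes NADH, had 905 CPM, the enolase ENO1 436, the pyruvate kinase PKM 179, the aldolase ALDOA 143 and the kinase PGK1, which makes ATP, 128. Lactate dehydrogenase B (LDHB, 125), the triose isomerase TPI1 (108), the mutase PGAM1 (96.9) and lactate dehydrogenase A (LDHA, 89.3) followed closely on the same scale. The first steps were lower, with the glucose transporter SLC2A1 at 64.0, the hexokinases HK1 at 39.3 and HK2 at 29.6, the isomerase GPI at 17.2 and the phosphofructokinase PFKP at 22.6 CPM per kb.

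In the pentose phosphate pathway, the dehydrogenase PGD, which yields NADPH, had 73.3 CPM per kb, TALDO1 43.2, TKT 37.8, RPIA 12.2 and RPE 9.13. The last 4 exchange and isomerize sugar phosphates between this pathway and glycolysis. The kinases that switch off pyruvate dehydrogenase were among the lowest, with PDK2 at 4.62, PDK1 at 0.870 and PDK3 at 0.778 CPM per kb, as were the lactate carrier SLC16A1 (0.842) and TIGAR (1.18), a p53-induced phosphatase that opposes glycolysis. GAPDH exceeded every other gene of the set in every library on this scale. The group difference in any single gene was small beside the whole range of levels, as the plot of length-scaled levels shows. Genes of similar level could lie closer together than that difference. PDK3 had 0.843 CPM per kb in control and 0.713 in CML-exposed cells, beside PDK1 at 0.844 in control cells.

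**Figure D1:**
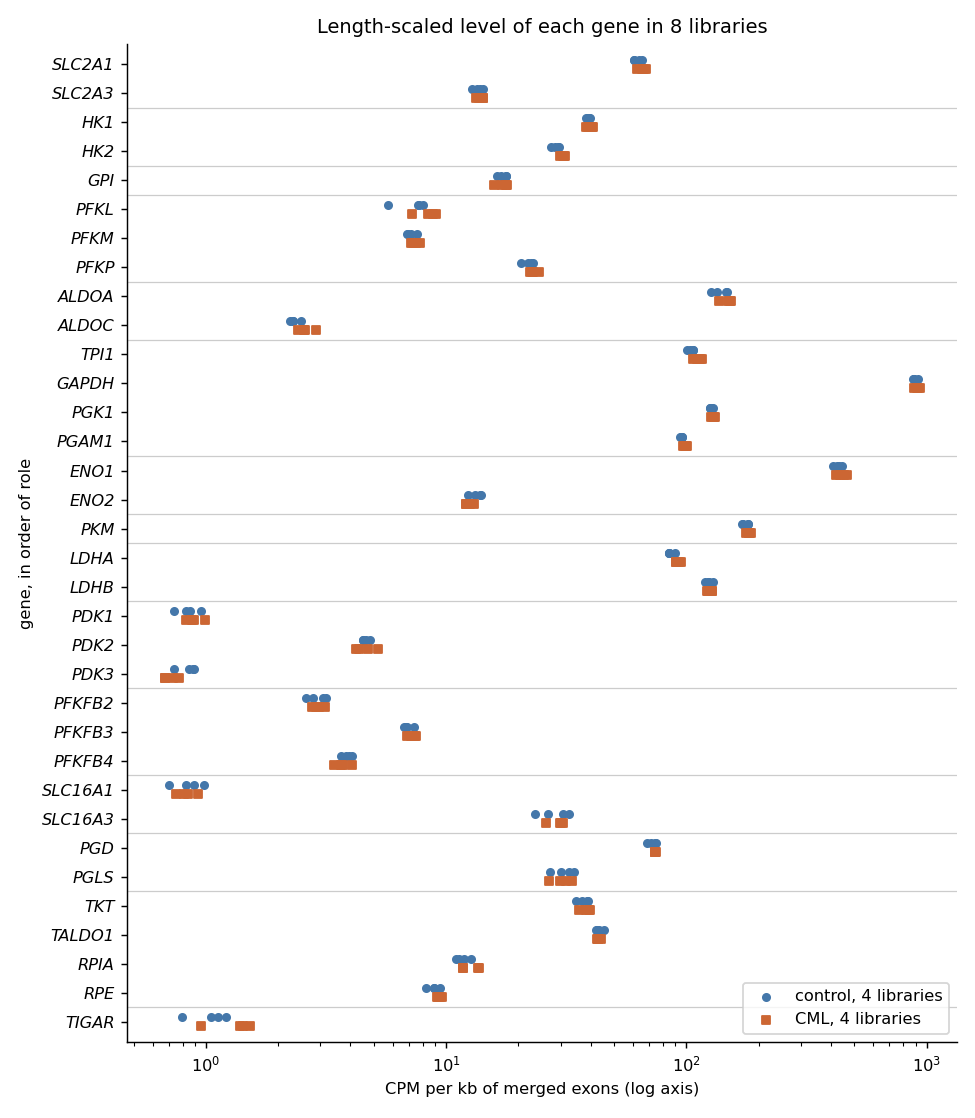
Level of each of the 34 genes in CPM per kb of merged exons (log axis), in order of role, with 4 control libraries (circles) and 4 CML libraries (squares). GAPDH (905) and PDK3 (0.778) mark the ends of the range of means, and control and CML points lie close together for nearly every gene.

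Within families, counted over the listed genes only, 1 isozyme usually held most of the transcript. ALDOA made up 98.3% of the length-scaled signal of ALDOA and ALDOC in both groups (SD 0.10 in control and 0.14 in CML libraries, n = 4). The proton-coupled lactate exporter SLC16A3 made up 97.0% ± 0.81 of the pair with SLC16A1 in control cells and 97.2% ± 0.30 in CML-exposed cells. SLC16A7, a related carrier outside the list, is not in that share and was at 41.9 ± 2.14 CPM in control and 42.7 ± 2.39 CPM in CML-exposed cells. SLC2A1, the basal glucose transporter, made up 82.1% ± 0.96 and 82.5% ± 0.79 beside SLC2A3. PDK2 made up 73.3% ± 2.4 and 74.1% ± 2.5 of the listed pyruvate dehydrogenase kinases PDK1, PDK2 and PDK3, without PDK4. These shares lay within the spread of the other group's libraries.

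Other families were mixed. PFKP, the platelet-type phosphofructokinase, held 60.5% ± 0.98 and 59.4% ± 0.73 of its family in control and CML-exposed cells, with the liver-type PFKL at 19.9% ± 1.9 and 21.5% ± 1.5 and the muscle-type PFKM at 19.6% ± 1.5 and 19.1% ± 0.81. Among the PFKFB enzymes, which make and break down the activator of phosphofructokinase, PFKFB3 held 50.4% ± 1.7 and 52.2% ± 1.2, PFKFB4 28.3% ± 0.53 and 26.7% ± 1.4, and PFKFB2 21.3% ± 1.8 and 21.1% ± 1.1. HK1, the housekeeping hexokinase, held 57.8% ± 1.0 of the pair with HK2, the inducible form, in control and 56.3% ± 0.53 in CML-exposed cells. HKDC1, a further hexokinase outside the list, is not in that share and was at 30.4 ± 0.442 CPM in control and 30.8 ± 1.38 CPM in CML-exposed cells. All shares depend on the length used: with the longest transcript in place of merged exons, the mean share over all libraries was 68.5% in place of 57.1% for HK1 and 50.2% in place of 58.3% for LDHB.

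In 2 of the 9 families the shares did not overlap between the groups. No such count was made over other sets of genes, so there is no background to set beside it. LDHA, whose subunit favours the making of lactate, held 41.0% ± 0.44 of the pair in control libraries (range 40.5% to 41.5%) and 42.4% ± 0.69 in CML libraries (range 41.6% to 43.2%), a gap of about 0.1 percentage points between the nearest libraries. ENO1 held 97.0% ± 0.11 (96.8% to 97.1%) and 97.3% ± 0.076 (97.2% to 97.4%), the rest being the neuronal form ENO2. These shares are of transcripts and not of protein, and they are descriptions that were not tested.

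In the comparison of CML-exposed with control cells, none of the 33 genes passed the FDR of 0.3 that the study used, beside 158 of 17649 genes (0.895%), of which 119 were higher and 39 lower in CML-exposed cells. The test was limma on log2(CPM + 1) over all genes with Benjamini-Hochberg adjustment. That split of called genes was 46 to 27 with libraries centred on their medians and 90 to 54 after quantile normalization. At an unadjusted p under 0.05 there were 5 of the 33 genes, beside 7.66% of all genes and 8.71% of the 10669 genes whose mean was at least that of the lowest of the 33 (5.34 CPM). The 4 with the higher CML mean were LDHA, PGAM1, HK2 and TPI1, beside 4.77% of all genes, and PDK3 was the 1 with the lower mean, beside 2.90%.

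The same 4 genes were those in which every CML library lay above every control library, beside 2.62% of all genes with a value above 0 and 3.39% of genes of at least 5.34 CPM. This count depended on the scaling: it was 1 gene, HK2, with libraries centred on their medians (background 1.74%) and 0 after quantile normalization (background 2.10%). Without both libraries numbered 4, it was 10 of 33, beside 9.85% of genes, since 3 against 3 libraries separate more easily. In 0 of the 33 did every CML library lie below every control library, beside 1.33%. The median log2 fold change of the 33 genes was 0.052, beside 0.007 over all genes and 0.017 over genes of at least 5.34 CPM, and the single values ran from -0.22 (PDK3) to 0.31 (TIGAR). Of the 33 genes, 26 (78.8%) had the higher mean in CML-exposed cells, beside 53.5% of all genes and 61.3% of those of at least 5.34 CPM. The count was 23 with libraries centred on their medians or quantile normalized, and the share over all genes was not counted for those scalings.

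LDHA (chr11:18394563-18408425, GRCh38) had the smallest p of the set. LDHA measured 510, 513, 512 and 542 CPM in control replicates 1 to 4 and 548, 561, 546 and 573 CPM in CML replicates 1 to 4. Control replicate 4 stood well above the other control libraries and just below the lowest CML library. The group means were 520 ± 15.3 and 557 ± 12.4 CPM (SD, n = 4). The log2 fold change was 0.10 (SE 0.026, adjusted p = 0.387 in limma). Estimated reads of LDHA were not whole numbers in 6 of the 8 libraries. How reads were divided between LDHA and copies such as the pseudogene LDHAP4, at 3.47 CPM, is uncertain. LDHB, which completes the tetramer with LDHA and favours the use of lactate, was at 370 ± 10.9 and 375 ± 9.26 CPM, with a log2 fold change of 0.02 that turned negative under either rescaling (adjusted p = 0.976).

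PGAM1 (chr10:97426191-97433444), the mutase that moves the phosphate on phosphoglycerate, measured 243, 243, 241 and 238 CPM in control libraries and 246, 251, 253 and 255 CPM in CML libraries. The groups were narrow and did not overlap. The log2 fold change was 0.06 (SE 0.015, adjusted p = 0.387). Its estimated reads were not whole numbers in any of the 8 libraries, and how reads were divided between PGAM1 and copies such as the pseudogene PGAM1P8, at 1.21 CPM, is uncertain.

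TPI1 (chr12:6867420-6870948), the isomerase that balances the 2 triose phosphates, measured 287, 281, 289 and 272 CPM in control libraries and 299, 313, 307 and 289 CPM in CML libraries. The groups did not overlap, but by a narrow margin, since the lowest CML library (replicate 4, 289.0 CPM) was just above the highest control library (replicate 3, 288.5 CPM). The log2 fold change was 0.10 (SE 0.030, adjusted p = 0.488). TPI1 overlaps SPSB2, at 5.58 CPM, on the opposite strand.

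HK2 (chr2:74834127-74893359) traps glucose in the cell and is bound to mitochondria. HK2 measured 174, 168, 162 and 173 CPM in control libraries and 181, 183, 185 and 177 CPM in CML libraries. All CML libraries were above all control libraries. The log2 fold change was 0.10 (SE 0.027, adjusted p = 0.398). HK1, the more abundant form per kb, measured 268, 272, 270 and 264 CPM in control libraries and 264, 280, 278 and 268 CPM in CML libraries, which overlapped (log2 fold change 0.02, SE 0.022, adjusted p = 0.947).

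PDK3 (chrX:24465286-24550466), 1 of the kinases that hold pyruvate back from the mitochondrial dehydrogenase, was the only gene of the 5 with the lower CML mean. PDK3 measured 15.6, 12.9, 14.8 and 15.4 CPM in control libraries and 11.8, 11.8, 13.5 and 12.7 CPM in CML libraries. Control replicate 2 fell among the CML libraries, and the other 3 control libraries were above all of them. The log2 fold change was -0.22 (SE 0.072, adjusted p = 0.498), at 204 to 271 estimated reads per library. PDK2 measured 25.5, 26.4, 24.7 and 24.6 CPM in control and 23.7, 28.6, 25.8 and 23.1 CPM in CML libraries (SE 0.067, adjusted p = 1.00), and PDK1 was at 12.5 ± 1.34 and 13.3 ± 1.03 CPM.

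**Figure D2:**
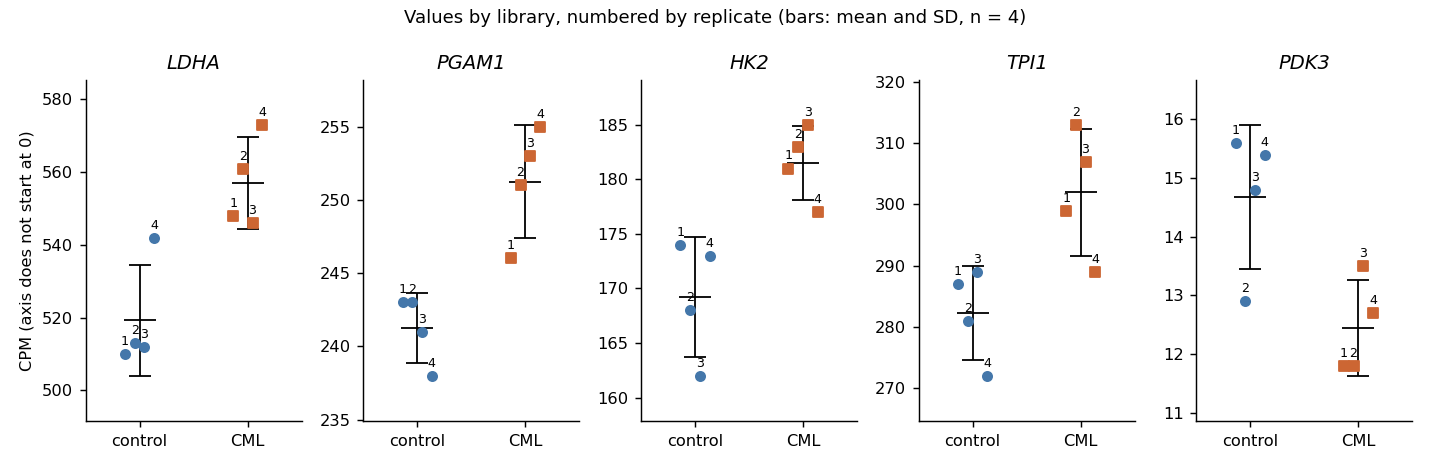
CPM of the 5 genes with an unadjusted p under 0.05 in each library, numbered by replicate, for control (circles) and CML (squares), with the mean and SD of each group (n = 4). The axes do not start at 0. The groups are apart for LDHA, PGAM1 and HK2, almost touch for TPI1 (288.5 and 289.0), and overlap for PDK3.

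At the entry of glycolysis, SLC2A1 measured 431, 399, 420 and 399 CPM in control libraries and 432, 443, 451 and 411 CPM in CML libraries. CML replicate 4 lay below 2 control libraries, and the log2 fold change was 0.07 (SE 0.038, adjusted p = 0.743). SLC2A3, a transporter of higher affinity, was at 98.5 ± 3.95 and 101 ± 2.91 CPM. GPI, which turns the glucose phosphate into its fructose form, measured 189, 174, 190 and 181 CPM in control libraries and 183, 192, 190 and 169 CPM in CML libraries, with means of 184 in both groups (SE of the log2 fold change 0.049, adjusted p = 1.00).

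Of the phosphofructokinases, which commit sugar to glycolysis, PFKP measured 179, 175, 171 and 160 CPM in control libraries and 179, 189, 178 and 173 CPM in CML libraries (log2 fold change 0.07, SE 0.041, adjusted p = 0.788). PFKL measured 71.6, 68.9, 68.2 and 51.1 CPM in control libraries and 74.9, 78.4, 81.4 and 64.5 CPM in CML libraries. The libraries numbered 4 were the lowest of both groups, and within the other 6 all CML values exceeded all control values, as in 9.85% of genes. PFKL had a log2 fold change of 0.21 (SE 0.120, adjusted p = 0.796), which was 0.10 without control replicate 4 and 0.17 without both libraries numbered 4, and PFKM was at 51.6 ± 2.26 and 53.8 ± 1.97 CPM.

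PFKFB3, which makes the activator of phosphofructokinase, measured 40.7, 42.0, 44.8 and 41.5 CPM in control libraries and 43.7, 45.6, 45.9 and 42.1 CPM in CML libraries (log2 fold change 0.07, SE 0.039, adjusted p = 0.794). PFKFB2 and PFKFB4 were at 29.7 ± 2.58 and 23.7 ± 1.02 CPM in control cells and 29.8 ± 1.58 and 22.7 ± 1.66 CPM in CML-exposed cells. None of the 3 separated the groups. PFKFB2 shares sequence with YOD1 on the opposite strand, at 42.0 CPM, and the sources used here do not state whether reads were counted by strand. The same limit holds for SLC16A3 with CSNK1D (140 CPM), PFKM with SENP1 (27.9 CPM) and RPE with KANSL1L (9.80 CPM).

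ALDOA, which splits the hexose into trioses, measured 558, 516, 564 and 486 CPM in control libraries and 570, 584, 587 and 524 CPM in CML libraries. The libraries numbered 4 were again the lowest of both groups, and the log2 fold change was 0.09 (SE 0.059, adjusted p = 0.822). Estimated reads of ALDOA were not whole numbers in any of the 8 libraries, and its exons overlap AC093512.2 on the same strand, at 16.9 CPM. ALDOC, the scarce brain-type aldolase, measured 6.50, 5.85, 6.05 and 6.04 CPM in control libraries and 6.66, 7.49, 6.34 and 6.78 CPM in CML libraries, where only CML replicate 3 fell below the highest control library (log2 fold change 0.14, SE 0.061, adjusted p = 0.682).

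GAPDH measured 2135, 2101, 2204 and 2123 CPM in control libraries and 2197, 2245, 2214 and 2124 CPM in CML libraries. The groups overlapped, with a log2 fold change of 0.04 (SE 0.029, adjusted p = 0.896), and PGK1 was at 691 ± 10.8 and 703 ± 13.1 CPM. ENO1 measured 2256, 2138, 2325 and 2216 CPM in control libraries and 2284, 2428, 2360 and 2198 CPM in CML libraries (log2 fold change 0.05, SE 0.042, adjusted p = 0.896). ENO2, by contrast, had the lower mean in CML-exposed cells, at 56.5, 52.8, 59.4 and 59.6 CPM in control libraries and 52.0, 54.0, 55.8 and 51.6 CPM in CML libraries (log2 fold change -0.09, SE 0.045, adjusted p = 0.711).

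PKM, the enzyme that forms pyruvate and the second ATP-making step, measured 1552, 1463, 1543 and 1482 CPM in control libraries and 1562, 1600, 1571 and 1519 CPM in CML libraries. CML replicate 4 was the only CML library below any control library (log2 fold change 0.05, SE 0.029, adjusted p = 0.793). SLC16A3 measured 299, 283, 246 and 217 CPM in control libraries and 274, 278, 284 and 241 CPM in CML libraries, a spread within each group far wider than the distance between them (log2 fold change 0.05, SE 0.110, adjusted p = 0.994). SLC16A1, the carrier that can also import lactate, was at 5.41 ± 0.735 and 5.28 ± 0.469 CPM.

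No gene of the pentose phosphate pathway separated the groups. PGD measured 238, 229, 247 and 249 CPM in control libraries and 247, 247, 248 and 249 CPM in CML libraries, so that the CML libraries were closer together than the control libraries (log2 fold change 0.04, SE 0.027, adjusted p = 0.823). TKT measured 368, 350, 371 and 330 CPM in control libraries and 362, 375, 379 and 341 CPM in CML libraries (log2 fold change 0.04, SE 0.048, adjusted p = 0.940). RPE measured 31.4, 31.5, 29.1 and 33.2 CPM in control libraries and 32.2, 32.7, 34.0 and 33.2 CPM in CML libraries (log2 fold change 0.08, SE 0.041, adjusted p = 0.760). TALDO1 was at 126 ± 4.16 and 125 ± 1.85 CPM and RPIA at 21.3 ± 1.34 and 23.1 ± 1.95 CPM. PGLS, the lactonase listed under its clone-based symbol, was at 88.0 ± 8.56 and 86.3 ± 8.0 CPM (log2 fold change -0.03).

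TIGAR had the largest log2 fold change of the set and also the widest error, 0.31 (SE 0.170, adjusted p = 0.775). TIGAR measured 11.5, 7.51, 9.96 and 10.6 CPM in control libraries and 13.1, 13.5, 9.03 and 14.4 CPM in CML libraries, and CML replicate 3 lay among the control libraries. Its reads were not whole numbers in 7 of 8 libraries. TIGAR shares exons on the same strand with AC008012.1, whose log2 fold change was -0.35. The sum of both rows was 16.9 ± 0.987 CPM in control and 17.9 ± 1.24 CPM in CML libraries. Its log2 fold change was 0.07, and how reads were divided between the rows was not tested.

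Across the 33 genes, the libraries numbered 4 departed from the other 3 of their group according to GC content. The transcripts of the set ranged from 36.2% to 64.7% GC, with a median of 53.3% beside 47.9% for the 12928 genes of at least 1 CPM with a reference value. The GC-rich PFKL and SLC16A3 were lower in control replicate 4 than in the other control libraries by log2 differences of -0.44 and -0.34, and in CML replicate 4 by -0.27 and -0.21. The AT-rich PDK1 was higher in both, by 0.23 and 0.19. Over the 33 genes, GC content and the mean departure of the libraries numbered 4 had a Pearson r of -0.871 and a Spearman rho of -0.898, beside -0.630 and -0.658 over the 12928 genes; genes of 1 library are not independent, and these are descriptions. For every 10 points of GC, log2 values of those 12928 genes changed by -0.089 in control replicate 4 and -0.071 in CML replicate 4. Control replicate 1 leaned the other way, by 0.073, and the remaining libraries changed by 0.010 to 0.024.

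**Figure D3:**
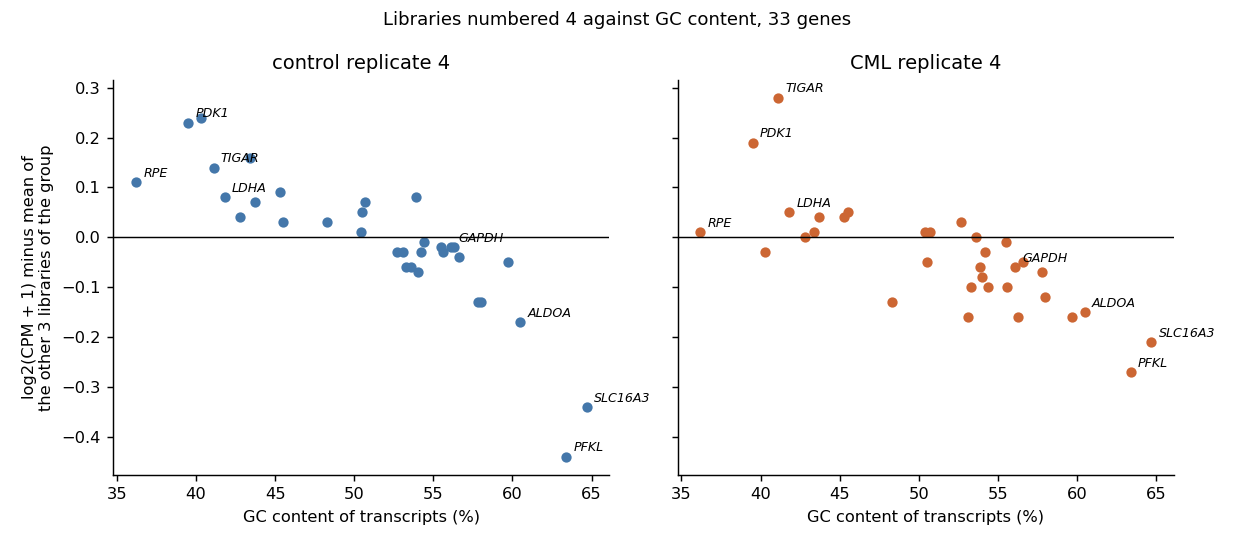
Departure of control replicate 4 and of CML replicate 4 from the mean of the other 3 libraries of their group, in log2(CPM + 1), against the GC content of the transcripts, 1 point for each of 33 genes. Both panels fall from left to right, from PDK1 (0.23 and 0.19) to PFKL (-0.44 and -0.27).

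After the trend of every library with GC content and exon length was taken out, 9 of the 33 genes passed an adjusted p of 0.3, beside 6.46% of the 12928 genes and 7.38% of those of at least 5.34 CPM. In that fit 8 genes rose (background 4.16%) and 1 fell (background 2.30%). The 8 were SLC2A1, HK2, PFKL, ALDOA, TPI1, ENO1, PKM and LDHA, which act between glucose uptake and lactate, and the 1 that fell was PDK3. GPI, GAPDH, PGK1 and PGAM1 of the same route did not pass. Nor did SLC2A3, HK1, PFKM, PFKP, ALDOC, ENO2 and LDHB, which serve the same steps as genes that passed. The log2 fold changes of the 9 that passed moved by at most 0.02. The standard error was smaller than before for 7 of the 9 and slightly larger for HK2 and PDK3. For LDHA the value was 0.08 (SE 0.018, adjusted p = 0.0206), for PFKL 0.21 (SE 0.049, adjusted p = 0.0437), for TPI1 0.09 (SE 0.022, adjusted p = 0.0611) and for ALDOA 0.09 (SE 0.023, adjusted p = 0.0826).

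In the same fit HK2 had 0.10 (SE 0.029, adjusted p = 0.0970), PKM 0.05 (SE 0.016, adjusted p = 0.181), SLC2A1 0.07 (SE 0.025, adjusted p = 0.189), ENO1 0.05 (SE 0.019, adjusted p = 0.256) and PDK3 -0.23 (SE 0.078, adjusted p = 0.197). PGAM1, with 1 of the 2 smallest p-values before, had 0.05 (SE 0.023, adjusted p = 0.456). The corrected levels of HK2, PFKL, TPI1, PKM and LDHA were higher in every CML library than in every control library, 5 of the 33 genes beside 4.49%. PFKL then stood at 66.1, 66.8, 68.1 and 57.2 in control libraries and 73.0, 76.6, 78.8 and 70.0 in CML libraries. The median log2 fold change of the 33 genes was 0.047, beside 0.006 over genes of at least 5.34 CPM.

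**Figure D4:**
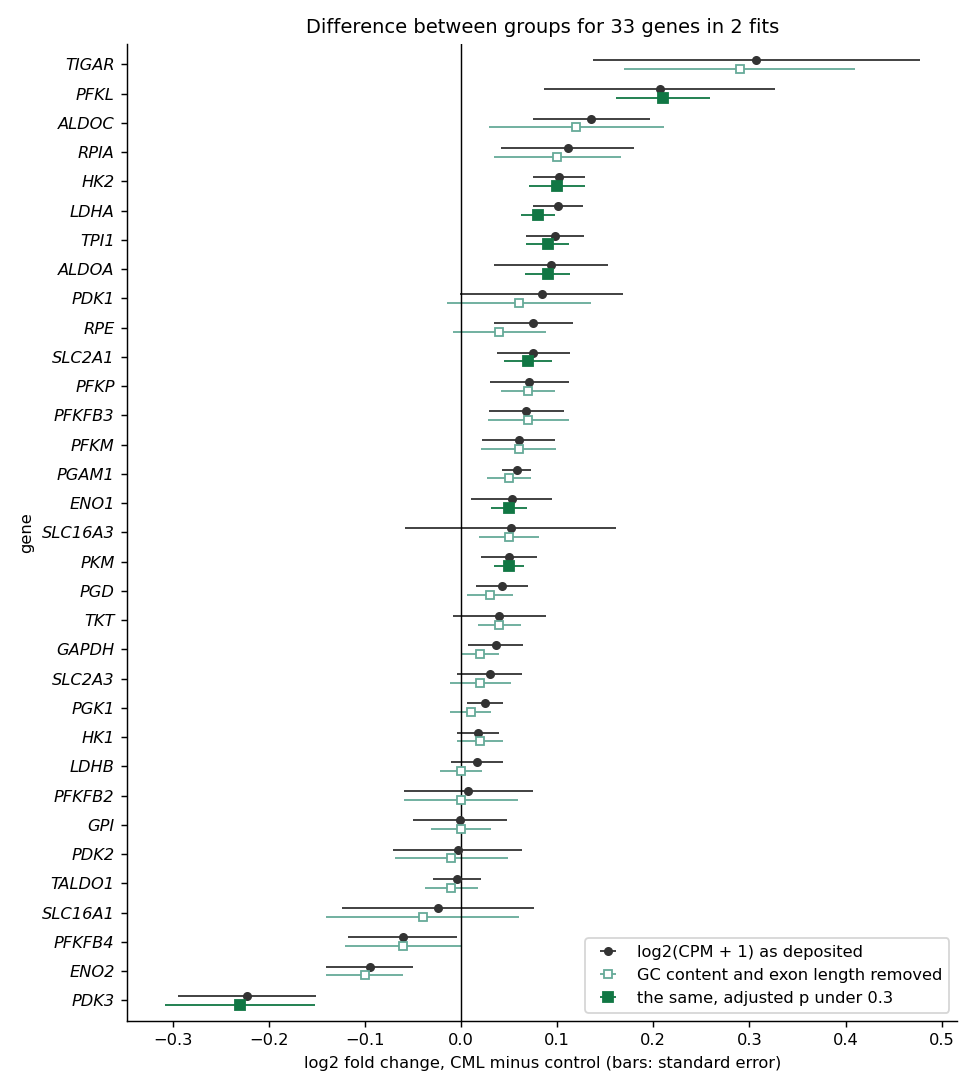
Log2 fold change (CML minus control) of the 33 genes with its standard error, from log2(CPM + 1) as deposited (circles) and with GC content and exon length removed (squares, filled where the adjusted p is under 0.3). The 9 filled squares are 8 genes to the right of 0, led by PFKL at 0.21, and PDK3 at -0.23.

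Leaving out libraries bore on the calls as well. Without both libraries numbered 4, TPI1 and LDHA passed the FDR of 0.3, 2 of 33 beside 1.82% of all genes. Without control replicate 4 alone, HK2 and LDHA passed, beside 3.91%. Which of the fits is nearer to the cells was not tested.

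Other genes of these pathways did not pass the test either. Of 35 further isozymes, transporters and pathway enzymes, 19 were in the table. In limma 0 passed the FDR of 0.3, beside 0.895% of all genes, and 1 had an unadjusted p under 0.05, beside 7.66%. That gene was PDK4, a starvation-induced kinase of the same family as PDK3, at 1.87 ± 0.144 CPM in control and 1.43 ± 0.233 CPM in CML-exposed cells (log2 fold change -0.25, adjusted p = 0.489). RBKS, the ribokinase, and BPGM, which makes the red cell regulator of oxygen binding, came next at -0.26 and -0.13 (adjusted p = 0.653 and 0.813). With GC content and exon length removed, 0 of the 19 passed, beside 6.46% of genes. Of 11 genes for the entry of pyruvate into mitochondria, 0 passed and 0 had an unadjusted p under 0.05, while with GC content and exon length removed 1 passed, lower in CML-exposed cells, the phosphatase PDP2 (log2 fold change -0.12, adjusted p = 0.269), which reactivates pyruvate dehydrogenase.

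Among neighbouring lists, 0 of 19 measured genes of glycogen, serine and gluconeogenic branches passed the FDR of 0.3 and 4 had an unadjusted p under 0.05, each with the higher CML mean. The fit without the GC trend called 2 of the 19, PSPH of serine synthesis (0.11, adjusted p = 0.259) and PYGL of glycogen breakdown (0.08, adjusted p = 0.283), both higher. Of 21 measured targets of hypoxia-inducible factors outside glycolysis 0 passed, and 4 had an unadjusted p under 0.05, 2 in each direction. Among those named here, the GC fit called CA12 higher (0.19, adjusted p = 0.154) and VEGFA lower (-0.06, adjusted p = 0.154). Of 15 NRF2 targets 0 passed, and 4 were under 0.05, 2 in each direction. The GC fit called NQO1 higher (0.12, adjusted p = 0.245) and FTH1 lower (-0.08, adjusted p = 0.00940), 2 of 14. Of 14 regulators 0 passed, and 2 were under 0.05, both with the higher CML mean. These were MYC and EPAS1, which the GC fit called higher (0.12, adjusted p = 0.154, and 0.07, adjusted p = 0.245), 2 of 13. Over all genes, 0.895% passed the FDR of 0.3 and 7.66% had an unadjusted p under 0.05 (4.77% higher and 2.90% lower in CML-exposed cells). The GC fit called 6.46% of its 12928 genes.

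Genes of cell division moved beside these values. Of 20 proliferation genes, a list chosen with earlier results of these data known, 7 passed the FDR of 0.3, beside 0.895% of all genes. All 7 were higher in CML-exposed cells. All 20 had the higher CML mean, beside 53.5% of all genes, and their median log2 fold change was 0.18, beside 0.007. The 7 were MKI67, CCNB1, CCNA2, TOP2A, RRM2, TYMS and BUB1. MKI67, which marks cycling cells, measured 116, 124, 127 and 128 CPM in control libraries and 153, 155, 148 and 153 CPM in CML libraries (log2 fold change 0.30, SE 0.034, adjusted p = 0.0856). With GC content and exon length removed 14 of the 20 passed, beside 6.46% of the 12928 genes in that fit. The part of cell division in the values of LDHA, HK2 and the other glycolytic genes was not tested.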

How the data were processed

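RNA-Seq of 8 libraries of MDA-MB-231 cells was used, 4 control and 4 CML. The authors deposited CPM values scaled across libraries, and the authors' processing notes name edgeR and the build hg38. The aligner, the counting tool and the use of strand are not given for this experiment in the sources used here, and the labels name both NextSeq and HiSeq instruments. A stranded library kit and Tophat are described for the study's tumors, and whether they apply to the CML libraries is not stated. The table held 17681 rows, of which 764 were 0 throughout. Values fell on steps of 1 read (0.0535 to 0.0622 CPM), and 85.1% to 86.1% of values above 0 were whole reads within 0.02, so the counts behind them were estimates and no count test was run.

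Rows with the same symbol (32 symbols) were averaged, and log2(CPM + 1) was fitted with limma 3.58.1 (variance trend) in R 4.3.3, with Benjamini-Hochberg adjustment over all 17649 genes. The code was tested on simulated data. Fold changes are on the log2(CPM + 1) scale, which understates those of genes of a few CPM. Exon lengths and GC content came from GENCODE v44 mapped to GRCh37, matched by Ensembl identifier, and gene coordinates and promoters from RefSeq GRCh38.p14. The GC correction took out the trend of every library with GC content and exon length over genes of at least 1 CPM.

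The 34 genes and all lists were chosen with earlier results of these data known. All 34 are named. Values in every library were given for the genes with the 10 smallest p-values and the most abundant gene of each role. PFKL was added after its values were seen, and so were the markers and the genes of the other lists named for passing only with GC content and exon length removed. SLC16A7, HKDC1 and ENO3, which the family shares leave out, were added likewise. Alternatives changed the pseudocount (0.1), the filter (mean of at least 1 CPM), the handling of repeated symbols, the scaling, the variance trend, the replicate block, GC content and the libraries included. A result for 1 gene of the neighbouring lists is not reported here.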

Additional observations from a re-analysis of the deposited data

Results flagged for a closer look

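In 68 groups of 4 libraries (34 genes in 2 groups), a library was set apart where its gap to the nearest other exceeded Dixon's critical share of the group's range, a limit that chance passes in about 1 of 20 groups. There were 2, fewer than the 3.4 that chance gives, and both were control replicate 4. PFKL was at 51.1 CPM there, below the 68.2 to 71.6 CPM of the other control libraries (gap 0.837 of the range). LDHA was at 542 CPM there, above the 510 to 513 CPM of the others (gap 0.908 of the range). PFKL is a GC-rich transcript (63.4%) and LDHA an AT-rich one (41.8%), and the part of GC content in either value was not tested for single genes.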

How the results depend on the processing

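Alternatives were run for each of the 34 genes and each count, 18 in all. The median log2 fold change of the 33 genes, 0.052, ranged from 0.032 to 0.055 over the fits on all libraries and without both libraries numbered 4, and from 0.035 to 0.058 as single libraries were left out. Calls at an FDR of 0.3 went from 0 to 9 with GC content and exon length removed, 12 with the replicate block as well and 2 without both libraries numbered 4, and lay between 0 and 2 as single libraries were left out. With the replicate block alone there was 1 call, LDHA (adjusted p = 0.263). Genes with an unadjusted p under 0.05 went from 5 to 9 with the replicate block, 12 with GC content and exon length removed, 12 with both, and lay between 5 and 8 as single libraries were left out. Over all genes that share was 7.66% in the main fit and was not counted for these alternatives. Whether the counts of the 33 genes rose more than those of the whole table is therefore not known. Genes whose groups did not overlap went from 4 to 1 with libraries centred on their medians, 0 after quantile normalization and 10 without both libraries numbered 4, and lay between 4 and 8 as single libraries were left out. Over all genes with a value above 0, groups did not overlap for 3.95%, and under the same alternatives for 4.32%, 3.85%, 14.4% and 6.16% to 10% of genes. The replicate numbers were not taken to pair the samples, since the correlation of deviations was 0.199, -0.0303, -0.0645 and 0.334 for numbers 1 to 4. Of all genes, 158 were called, 189 with the replicate block, 73 with centred libraries, 835 with GC content and exon length removed, 916 with the block as well, 321 without both libraries numbered 4, and 20 (without CML replicate 2) to 690 (without control replicate 4) as single libraries were left out. The cause of these moves was not tested.

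With the longest transcript, shares over all libraries moved to 97.9% for ENO1, 68.5% for HK1, 50.2% for LDHB, 79.1% for PDK2, 46.9% for PFKFB3, 67.1% for PFKP, 97.8% for SLC16A3 and 84.7% for SLC2A1, because the lengths differ.

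The sign of the log2 fold change was the same in all 18 alternatives for 25 of the 34 genes and turned in at least 1 for 9, none of them called in any alternative. With centred libraries and quantile normalization in turn, HK1 stood at -0.0021 and -0.017, LDHB at -0.0030 and -0.0088, and PFKFB2 at -0.012 and -0.0080. With GC content and exon length removed, with or without the block, LDHB stood at -0.0037 and PFKFB2 at -0.0046. Without both libraries numbered 4, GPI stood at 0.031, PDK2 at 0.024 and SLC16A1 at 0.043. As single libraries were left out, values ranged from -0.027 to 0.038 for GPI, -0.0001 to 0.034 for LDHB, -0.062 to 0.037 for PDK2, -0.040 to 0.047 for PFKFB2, -0.088 to 0.030 for PGLS, -0.098 to 0.035 for SLC16A1, -0.034 to 0.120 for SLC16A3 and -0.019 to 0.018 for TALDO1. Adding the overlapping row on the same strand, an alternative chosen after seeing the data, took TIGAR from 0.31 to 0.07 and left ALDOA at 0.09, PFKFB4 at -0.05, LDHB at 0.02 and PGK1 (with ATP7A) at 0.02. Depth limits the genes of about 5 to 15 CPM, such as SLC16A1 (75 to 110 estimated reads) and ALDOC (99 to 140).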
